A study of Mus musculus with 34 samples.

Results

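The 9 genes described here encode secreted WNT ligands: Wnt3, Wnt3a, Wnt2b, Wnt5a, Wnt5b, Wnt6, Wnt7b, Wnt8a and Wnt11. They were chosen by name, and each was found once, by its symbol, among the 37145 genes of every culture table and the 46785 genes of every embryo table. The study examined the long noncoding RNA Evx1as, which is transcribed beside the homeobox gene Evx1, by RNA sequencing of mouse cells and embryo sections, and 30 of its 34 samples were analysed here. The values are FPKM, a fragment count scaled for transcript length and library size, so a level can be compared between genes of different length.

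The cultures were CJ9 mouse embryonic stem cells, strain 129S1/SVImJ, sampled on day 4 after withdrawal of the self-renewal factor LIF. There were 3 wild-type libraries and 3 of cells carrying a knock-in labelled 4x polyA. Polyadenylation signals end transcription early; the labels give neither the locus of the insertion nor the number of clones behind the 3 knock-in libraries. The embryo samples were laser-captured pieces of frozen sections, strain C57/B6, embryonic day 7, either heterozygous (Evx1as+/-) or homozygous (Evx1as-/-) for the Evx1as allele, and no wild-type section was among them. Streak sections numbered 6 Evx1as+/- (layers 1, 3, 5, 7, 9 and 11) and 5 Evx1as-/- (layers 1, 5, 7, 9 and 11). Mesoderm sections numbered 3 Evx1as+/- (layers 7, 9 and 11) and 5 Evx1as-/- (layers 3, 5, 7, 9 and 11), and each genotype had 1 piece of anterior epiblast from layers 4 to 6. The end of the embryo from which layers were counted is not stated in the labels. A further 3 sections carried a title and a cell-type label naming different regions, and stayed out of the groups. No label links a section to its embryo, so sections may share one and p-values over sections may be too small. In both parts of the study p-values measure only the spread between these libraries.

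WNT proteins are lipid-modified in the secretory pathway by Porcn and carried out of the cell by Wls. They bind Frizzled receptors on nearby cells, and with the co-receptors Lrp5 and Lrp6 this stabilises beta-catenin, which enters the nucleus and acts with TCF and LEF factors on target genes such as Axin2, Sp5 and T. In the mouse gastrula, Wnt3 is required for the primitive streak to form, Wnt3a for the later output of paraxial mesoderm and tail, and Wnt5a and Wnt11 act largely outside the beta-catenin branch, on cell movement and polarity.

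The labels were checked on the RNA they concern. The Evx1as row (5730457N03Rik) lay between 3.94 and 5.99 FPKM in wild-type cultures and between 0.0674 and 0.137 FPKM in the knock-in. In sections Evx1as (5730457N03Rik) reached 4.57 FPKM in the Evx1as+/- streak, where 1 section of 6 was at 0, and 0.159 FPKM in the Evx1as-/- streak, and it was at 0 in all 5 Evx1as-/- mesoderm sections. T, which marks the streak, lay between 133 and 297 FPKM in the Evx1as+/- streak and between 50.8 and 105 FPKM in the Evx1as-/- streak. In mesoderm sections T lay between 5.18 and 22.2 FPKM. The number of genes at 1 FPKM or more was 12758 to 13073 per culture library and 6806 to 10959 per section. No table held read counts, so depth is unknown. Mitochondrially encoded genes held 3.38% to 5.53% of summed FPKM in the Evx1as+/- streak and mesoderm sections and 2.03% to 3.21% in the Evx1as-/- ones; their part in the genotype comparisons below was not tested.

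The sequence just before the start site is shown for the 3 ligand genes on which the comparisons below turn: Wnt6, which differed most between the cultures, and Wnt3 and Wnt3a, which led the sections. Each is the 250 bases upstream of the RefSeq start site, on the strand of the gene, GRCm38.p6, with GC boxes (GGGCGG, either strand, overlaps counted) in capitals.
Wnt6, chr1:74771642-74771891, plus strand: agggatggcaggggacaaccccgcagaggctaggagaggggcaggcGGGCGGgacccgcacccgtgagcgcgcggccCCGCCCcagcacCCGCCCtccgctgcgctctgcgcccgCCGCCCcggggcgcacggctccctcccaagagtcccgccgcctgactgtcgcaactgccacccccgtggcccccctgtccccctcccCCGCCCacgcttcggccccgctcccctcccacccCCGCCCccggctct
Wnt3, chr11:103773925-103774174, plus strand: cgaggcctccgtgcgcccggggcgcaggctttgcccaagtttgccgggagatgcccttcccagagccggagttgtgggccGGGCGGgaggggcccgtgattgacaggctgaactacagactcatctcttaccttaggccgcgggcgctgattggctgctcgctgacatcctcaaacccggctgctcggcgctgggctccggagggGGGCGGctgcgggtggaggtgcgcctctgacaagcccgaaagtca
Wnt3a, chr11:59290752-59291001, minus strand: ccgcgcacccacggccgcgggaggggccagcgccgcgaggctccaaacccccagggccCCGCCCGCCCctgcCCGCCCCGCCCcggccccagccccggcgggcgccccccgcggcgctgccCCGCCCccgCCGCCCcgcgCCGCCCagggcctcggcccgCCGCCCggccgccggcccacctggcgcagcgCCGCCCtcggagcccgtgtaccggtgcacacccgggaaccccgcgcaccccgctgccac

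The windows of Wnt6, Wnt3 and Wnt3a held 6, 2 and 9 GC boxes and were 79.6%, 68.0% and 87.6% G or C. The median over 32851 promoters of the same length was 52.4% G or C, and 32.7% of them held a GC box. The TCF/LEF words CTTTGAA and CTTTGAT, searched on both strands, stood in 7.48% of all those windows, and the T-box word AGGTGTGA in 1.12%. None of these words was found in the windows of Wnt6, Wnt3 or Wnt3a. RefSeq windows were read for 6 of the 9 genes, and among the others a TCF/LEF word stood in 1 window of Wnt11 and in 1 of Wnt5b. These matches describe letters and no binding.

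In the cultures, Wnt6 was the most abundant of the 19 mouse WNT genes in wild-type cells and was close to 0 in the knock-in. Wnt3, Wnt7b, Wnt5a and Wnt5b also fell, and Wnt8a rose. Of the 8 ligand genes tested, 6 passed the threshold, 1 higher and 5 lower, against 32.4% of the 13133 genes tested, of which 2134 were higher and 2122 lower. The test was limma on log2(FPKM + 1), with a Benjamini-Hochberg adjusted p under 0.05 over all genes whose mean was at least 1 FPKM. The median log2 change was -1.87 over the 8 ligand genes and 0.02 over all genes tested.

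Wnt6, a ligand of surface ectoderm and other epithelia, measured 192, 213 and 127 FPKM in the 3 wild-type libraries and 0.779, 0.296 and 2.19 FPKM in the 3 knock-in libraries. Every wild-type library was far above every knock-in library, and the intervals that the authors deposited with the values were 119 to 134 FPKM for the lowest wild-type library and 1.17 to 3.22 FPKM for the highest knock-in library. Wnt6 fell by 6.48 on the log2 scale (SE 0.34, limma adjusted p = 7.57e-05). The gene lies on chromosome 1, whose tested genes had a median log2 change of -0.34; relative to that median the change was -6.14.

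Wnt3, the ligand needed for streak formation, measured 62.8, 57.1 and 51.1 FPKM in wild-type cultures and 9.36, 10.2 and 15.1 FPKM in the knock-in. The groups did not overlap, and Wnt3 stayed well above 0 in every knock-in library. The log2 change was -2.23 (SE 0.19, limma adjusted p = 0.000324). Wnt7b, which acts in epithelia and in placental development, measured 26.9, 29.6 and 19.9 FPKM against 3.24, 2.92 and 5.24 FPKM. Its log2 change of -2.48 (SE 0.23, adjusted p = 0.000415) was close in size to that of Wnt3. Wnt3a, the nearest relative of Wnt3, was low in these cultures: 1.13, 1.31 and 1.14 FPKM in wild type and 0.214, 0.00878 and 0 FPKM in the knock-in. Its mean over the 6 libraries was under 1 FPKM and it entered no test; with no filter on low values it was among the 7 of 9 ligand genes past the threshold.

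Wnt5a, best known for signalling outside beta-catenin, and its close relative Wnt5b fell as well. Wnt5a measured 17.7, 9.54 and 11.9 FPKM in wild type and 0.307, 0.107 and 1.35 FPKM in the knock-in. Its deposited intervals were wide, 2.82 to 16.3 FPKM for the lowest wild-type library and 0 to 5.50 FPKM for the highest knock-in library, so these single libraries were not separated by their own intervals. Over the groups, Wnt5a fell by 3.18 on the log2 scale (SE 0.33, limma adjusted p = 0.000625). Wnt5b measured 11.1, 10.1 and 10.5 FPKM against 2.90, 2.48 and 3.95 FPKM and fell by 1.51 (SE 0.17, adjusted p = 0.000913).

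Wnt8a, a ligand of the posterior epiblast and streak, was the only 1 of the 8 tested ligand genes that rose. It measured 4.49, 6.45 and 4.31 FPKM in wild type and 21.2, 22.7 and 27.5 FPKM in the knock-in, with no overlap. The log2 change was 2.04 (SE 0.18, limma adjusted p = 0.000394). Wnt2b lay between 0.993 and 1.53 FPKM in wild type and between 0.544 and 1.35 FPKM in the knock-in, with overlapping groups and a log2 change of -0.32 (95% interval -0.87 to 0.22, adjusted p = 0.325). Wnt11 lay between 0.911 and 1.51 FPKM and between 1.01 and 2.62 FPKM, with a log2 change of 0.34 (95% interval -0.26 to 0.95, adjusted p = 0.346).

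**Figure D1:**
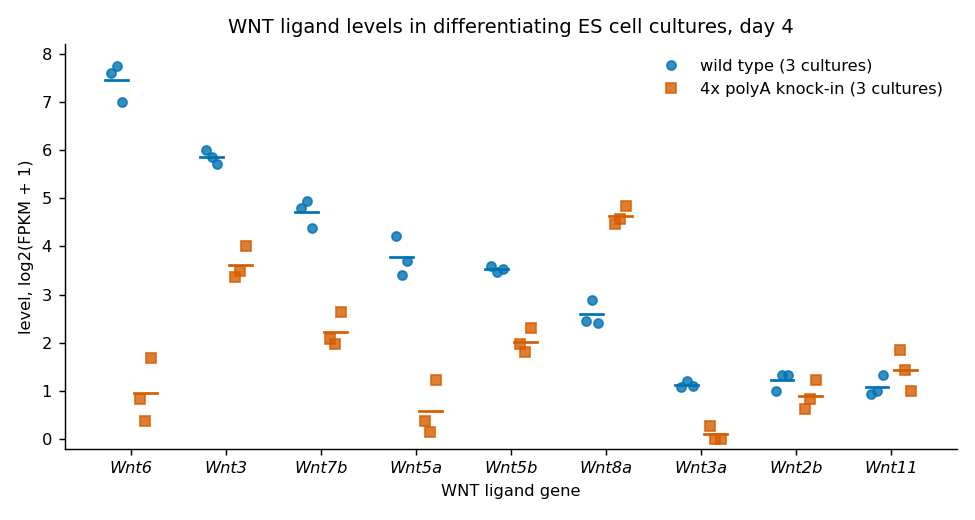
Levels of the 9 ligand genes on the log2(FPKM + 1) scale in the 3 wild-type and 3 knock-in cultures; points are libraries and bars are group means. Wnt6, Wnt3, Wnt7b, Wnt5a and Wnt5b are lower in every knock-in library than in any wild-type library, and Wnt8a is higher.

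The make-up of the ligand transcripts differed between the cultures. Summed over the 19 mouse WNT genes, the level was 292 to 420 FPKM in wild type and 48.3 to 69.8 FPKM in the knock-in. Wnt6 held a mean of 47.2% of that sum in wild type, and Wnt8a held 42.3% in the knock-in. Wnt3 held 13.6% to 17.5% of the sum in wild type and 17.9% to 21.6% in the knock-in, so its share was higher in every knock-in library although its level fell. The 10 other WNT genes were fixed as a list; 4 of them were tested and all 4 were lower. Among them, Wnt4 lay between 29.4 and 40.6 FPKM in wild type and between 2.60 and 5.99 FPKM in the knock-in (log2 change -2.80). Wnt10a, a ligand of skin and its appendages, lay between 17.2 and 26.8 FPKM in wild type and between 0.163 and 0.668 FPKM in the knock-in (log2 change -3.96). Wnt7a and Wnt9a changed by -2.97 and -1.25.

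The counts of other pathway genes are to be read against the 32.4% of all tested genes called in this comparison, 16.2% higher and 16.2% lower. For release, Wls was lower in the knock-in, with means of 11.0 and 1.95 FPKM and a log2 change of -2.02, and Porcn had means of 5.58 and 4.22 FPKM and did not pass. Of 14 tested receptors and co-receptors, 4 were higher and 5 lower, and their median log2 change was -0.09. The Frizzled receptor Fzd10 (-1.48) and the co-receptor Ptk7 (-1.06) were lower, and the Frizzled receptors Fzd8 (0.98) and Fzd7 (0.80) were higher. Of 6 tested secreted inhibitors, 3 were higher and 1 lower. Sfrp2 and Sfrp1, which bind WNT proteins outside the cell, changed by 2.22 and 1.60, and Sfrp4 changed by 1.29. The 1 lower was Dkk1, with a log2 change of -2.29. All 5 tested genes of the R-spondin list passed, 2 higher and 3 lower. The R-spondin Rspo1 (1.48) and its receptor Lgr4 (0.69) were higher. The R-spondin Rspo3 (-1.41) and the ligases Rnf43 (-1.21) and Znrf3 (-0.53) were lower. Of 16 tested members of the beta-catenin and TCF/LEF branch, 5 were lower and 0 higher, a share called close to that of all genes; among them were the coactivator Bcl9l (-1.66) and the factors Tcf7l2 (-0.99) and Lef1 (-0.79).

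Of 11 tested genes known as WNT and beta-catenin targets in the streak and tail, 8 were lower and 1 was higher, with a median log2 change of -2.88. Cdx2 and Cdx1, homeobox genes of the posterior body, changed by -3.87 and -3.29, T by -3.79 and Evx1 by -3.65. Axin2, a feedback inhibitor of the pathway that was singled out after its values were seen, changed by -0.86, less than Sp5 (-3.13) and Msgn1 (-2.88) of the same list. The kit marked strand according to the labels, but how strand was used in quantification is not given in the sources used here, so reads of Evx1 and of Evx1as may not be fully told apart.

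Cell-type markers moved in the same comparison, in which 32.4% of all tested genes were called. The sum of 6 streak genes was 255 to 420 FPKM in wild type and 80.9 to 96.6 FPKM in the knock-in. All 6 were tested and 4 were lower. The sum of 8 mesoderm genes was 63.0 to 114 FPKM and 39.4 to 54.8 FPKM, with 4 of 6 tested lower. T, Evx1 and Msgn1 of these lists are also in the target list. The sum of 10 visceral endoderm genes was 12.3 to 25.6 FPKM and 9.00 to 11.7 FPKM, and the 1 tested, Dab2, was lower. The summed level of 8 epithelial genes, which include Krt8 and Krt18 of simple epithelia and Krt14, Trp63 and Tfap2a of basal or surface epithelia, was 815 to 1380 FPKM in wild type and 246 to 307 FPKM in the knock-in, and 6 of the 7 tested were lower. The sum of 10 trophoblast genes was 42.8 to 104 FPKM and 13.3 to 17.8 FPKM, with Prl3d1 at 0 in all 6 libraries. Of 6 tested, 4 were lower, Cdx2, Gata3, Krt7 and Tfap2c, and Esx1 was higher (1.22). No other gene of that list passed. Cdx2 is also in the target list and Krt7 in the epithelial list, so these lists are not separate. The sum of 6 parietal endoderm genes was 303 to 383 FPKM and 152 to 179 FPKM, and 3 of the 3 tested were lower. The sum of 6 anterior epiblast genes was 267 to 337 FPKM and 994 to 1112 FPKM, with 5 of 6 higher. The part of these cell types in the ligand changes was not tested, and in bulk libraries fewer cells of a type and less RNA per cell cannot be told apart. File names carry a number read here as the sequencing lane, which no sample label gives. Number 3 was shared by 1 wild-type and 2 knock-in libraries. Among these the log2 changes were -6.71 for Wnt6, -2.12 for Wnt3 and 1.80 for Wnt8a. Whether libraries with the same lane number were sequenced in the same run is not known.

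The ligands of the embryo sections overlapped in part with those of the cultures. Wnt3, Wnt5a, Wnt5b and Wnt8a were found in both, whereas Wnt3a was prominent only in sections and Wnt6 and Wnt7b only in cultures. Wnt3, Wnt3a, Wnt8a, Wnt5b and Wnt5a reached peaks of 24.1, 19.4, 14.3, 11.9 and 9.63 FPKM among the 24 sections. Wnt6 was at 0 in 23 sections and at 0.0798 FPKM in the other, and Wnt7b was at 0 in 22 and reached at most 0.263 FPKM. An FPKM of 0 in such small samples may be a transcript that was missed. Wnt2b and Wnt11 reached 2.32 and 2.75 FPKM. Among the 10 other WNT genes, Wnt2 was the most abundant, at up to 4.41 FPKM, and the next, Wnt9a, reached 1.38 FPKM.

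Wnt3 was the leading ligand of the Evx1as-/- streak, and it shared that place with Wnt3a in the Evx1as+/- streak. In Evx1as+/- streak layers 1, 3, 5, 7, 9 and 11, Wnt3 measured 3.14, 13.0, 11.0, 13.0, 14.2 and 4.57 FPKM. In Evx1as-/- streak layers 1, 5, 7, 9 and 11 it measured 5.32, 22.5, 23.2, 24.1 and 12.7 FPKM. The Evx1as-/- section was higher in all 5 matched layers, but the ranges overlapped because layers 1 and 11 were low in both genotypes. With layer as a covariate the log2 change was 0.72 (95% interval -0.21 to 1.66, limma adjusted p = 0.566).

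Wnt3a differed the other way. In the same order of layers it measured 5.10, 12.1, 19.4, 9.37, 11.0 and 3.88 FPKM in the Evx1as+/- streak and 0.349, 3.63, 3.06, 6.00 and 2.88 FPKM in the Evx1as-/- streak. The Evx1as-/- section was lower in all 5 matched layers, and the groups overlapped only through layers 1 and 11 of the Evx1as+/- series. The log2 change was -1.47 (95% interval -2.41 to -0.52); the unadjusted limma p was 0.00485 and the adjusted p 0.341, so it did not pass the threshold.

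Wnt8a measured 0, 11.5, 14.3, 8.44, 7.13 and 0.481 FPKM in the Evx1as+/- streak and 0, 5.48, 6.50, 2.55 and 4.50 FPKM in the Evx1as-/- streak. It was at 0 in layer 1 of both genotypes and lower in the Evx1as-/- section in 3 of 5 matched layers (log2 change -0.48, 95% interval -2.02 to 1.06). Wnt5b lay between 4.02 and 11.9 FPKM with a median of 4.80 in the Evx1as+/- streak and between 3.29 and 6.66 FPKM in the Evx1as-/- streak, with overlap throughout (log2 change -0.25, 95% interval -0.93 to 0.43). Wnt5a lay between 0.0436 and 9.63 FPKM and between 0 and 5.53 FPKM, also overlapping (log2 change -0.23, 95% interval -1.24 to 0.78).

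None of the 5 ligand genes tested in the streak passed the threshold by limma, against 0.0201% of the 9932 genes tested, which is 2 genes. At an unadjusted p under 0.05 there were 1012 genes, Wnt3a among them. The median log2 change of all tested genes was 0.25 in this comparison, 0.31 in the mesoderm and 0.25 over both regions. After scaling by median ratios the streak changes were 0.46 for Wnt3 and -1.65 for Wnt3a, and the mesoderm change of Wnt3 was 2.10 (adjusted p = 0.0408). None of the fixed lists of other ligands, release, receptors, inhibitors, R-spondins, transduction or targets had a member past the threshold between the genotypes in the streak or in the mesoderm taken alone. The visceral endoderm marker sum, of 10 genes such as Ttr and Afp, was 1.66 to 626 FPKM in the Evx1as-/- streak, highest in layer 11, and 2.73 to 28.5 FPKM in the Evx1as+/- streak. The anterior epiblast marker sum, of 6 genes such as Utf1 and Otx2, was 10.2 to 69.7 FPKM in the Evx1as-/- streak and 3.90 to 11.2 FPKM in the Evx1as+/- streak. No tested member of either list passed in the streak. Of 6 tested streak markers 1 passed, Nkx1-2, lower in the Evx1as-/- streak (log2 change -2.45, limma adjusted p = 0.0428). T was lower there without overlap but did not pass (log2 change -1.72, limma adjusted p = 0.0925). The sum of the 6 streak genes overlapped, at 230 to 426 FPKM (Evx1as-/-) and 264 to 452 FPKM (Evx1as+/-). The part of these cell types and markers in the ligand values was not tested.

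**Figure D2:**
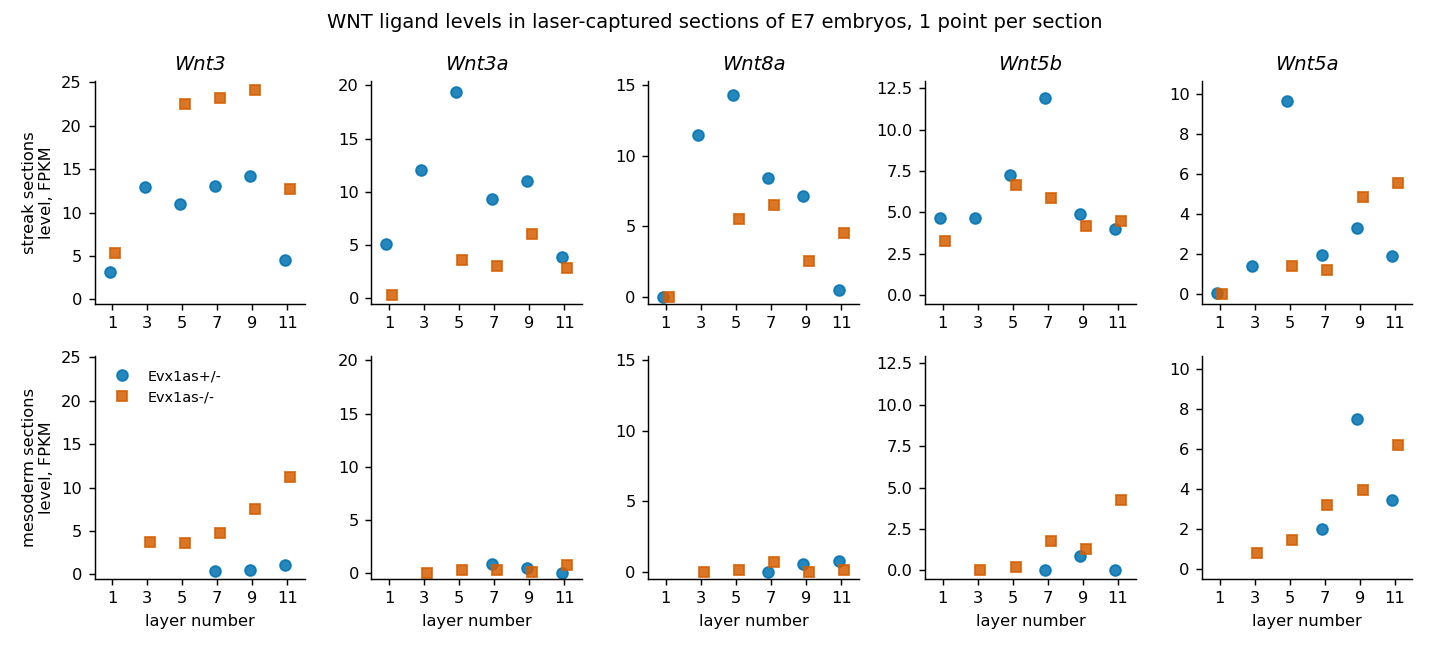
Levels in FPKM of 5 ligand genes by layer number in streak sections (top) and mesoderm sections (bottom); each point is 1 section, circles are Evx1as+/- and squares Evx1as-/-. Wnt3 squares lie above the circles of the same layer in both regions, and Wnt3a squares lie below them in the streak.

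The pair was also described by a ratio, a measure chosen after the values were seen and given with no test. Wnt3a over Wnt3 lay between 0.720 and 1.77 in the 6 Evx1as+/- streak sections and between 0.0656 and 0.249 in the 5 Evx1as-/- streak sections. Every section of the first group was above every section of the second. Of the summed FPKM of the 19 WNT genes, Wnt3 held a mean of 25.1% and Wnt3a 25.7% in the Evx1as+/- streak, and 49.7% and 8.08% in the Evx1as-/- streak. The sum itself overlapped, at 39.0 ± 18.2 FPKM (SD, n = 6) and 35.4 ± 14.7 FPKM (SD, n = 5). The Evx1as-/- section of layer 3, whose title says streak and whose cell-type label does not, measured 16.4 FPKM for Wnt3 and 3.09 FPKM for Wnt3a, a ratio of 0.188.

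**Figure D3:**
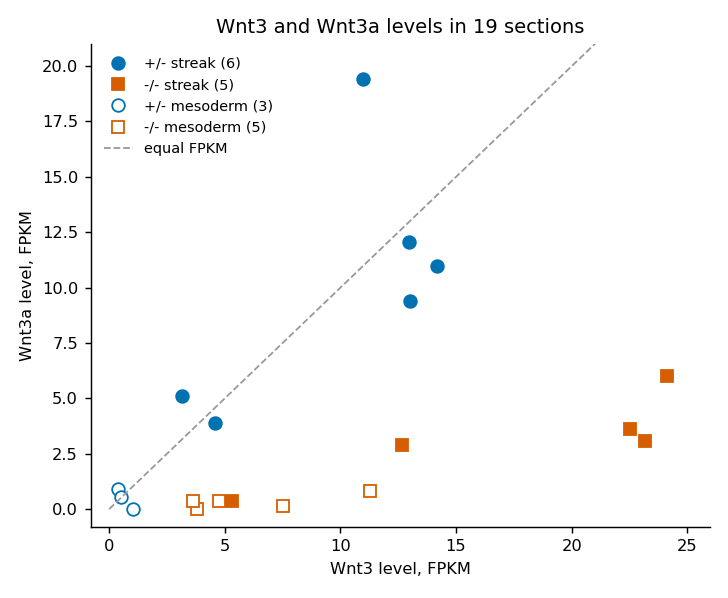
Wnt3a level against Wnt3 level, both in FPKM, in the 19 streak and mesoderm sections; the dashed line marks equal FPKM. The 6 Evx1as+/- streak sections lie on both sides of the line, with Wnt3a over Wnt3 from 0.720 to 1.77. The 5 Evx1as-/- streak sections lie below it, with ratios from 0.0656 to 0.249.

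In the mesoderm, Wnt3 was higher in the Evx1as-/- sections. Evx1as+/- layers 7, 9 and 11 measured 0.395, 0.495 and 1.05 FPKM, and Evx1as-/- layers 3, 5, 7, 9 and 11 measured 3.79, 3.62, 4.76, 7.51 and 11.3 FPKM. The groups did not overlap, and neither did the deposited intervals, whose highest bound in the Evx1as+/- sections was 1.63 FPKM and whose lowest bound in the Evx1as-/- sections was 2.64 FPKM. With layer as a covariate the log2 change was 2.39 (SE 0.32, limma adjusted p = 0.0302). Wnt3 was the only 1 of 3 tested ligand genes past the threshold, against 0.196% of the 8695 genes tested, which were 17 higher and 0 lower, or 16 higher and 3 lower after scaling by median ratios. The adjusted p rose to 0.0524, 0.108, 0.188 and 0.230 when Evx1as-/- layer 5, 7, 9 or 11 was left out, while the change stayed between 2.24 and 2.44. With layer as a block in place of the slope the change was 2.38 (adjusted p = 0.215), and with no filter on low values the adjusted p was 0.161.

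The 2 Evx1as+/- sections with conflicting labels, titled as mesoderm of layers 3 and 7, measured 1.12 and 0 FPKM for Wnt3, within or near the range of the other Evx1as+/- mesoderm sections. The sum of 6 streak genes was 27.5 and 16.9 FPKM in these 2, within the 13.0 to 41.1 FPKM of Evx1as+/- mesoderm. The same sum was 354 FPKM in the Evx1as-/- section titled as streak, within the 230 to 426 FPKM of that streak. T in that section, at 39.8 FPKM, lay between the Evx1as-/- mesoderm and streak ranges. By that sum all 3 sections lay with their titles, and fits by cell-type label place them in the other region. The lane number in the file names was 6 for the Evx1as-/- section, and 5 and 6 for Evx1as+/- layers 3 and 7. It was 2 for every other section. The part of a batch in the values of these 3 sections, or in fits that add them, was not tested. With sections added by title the Wnt3 change was 2.14 (limma adjusted p = 0.0136). With sections added by cell-type label the Wnt3 change was 2.43 (limma adjusted p = 0.134).

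None of the 4 tested streak markers passed between the genotypes in the mesoderm, where their median log2 change was 1.96. The summed level of 6 streak genes was 13.0 to 41.1 FPKM in the Evx1as+/- mesoderm and 57.8 to 82.6 FPKM in the Evx1as-/- mesoderm, without overlap. Among them Eomes, singled out after its values were seen, lay at 1.10 to 6.26 FPKM and 17.3 to 26.9 FPKM. T went the other way, at 6.17 to 22.2 FPKM and 5.18 to 10.4 FPKM with overlap (log2 change -0.57, limma adjusted p = 0.589). The anterior epiblast marker sum was 2.58 to 17.0 FPKM and 8.43 to 50.3 FPKM. The visceral endoderm sum was 1.32 to 8.85 FPKM and 9.32 to 405 FPKM; it was highest in Evx1as-/- layer 9, whereas Wnt3 was highest in layer 11, where that sum was 9.32 FPKM. The part of streak, epiblast or endoderm cells in the Wnt3 difference was not tested.

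The other ligands of the mesoderm showed no change past the threshold. Wnt5a, which held a mean of 45.7% of the summed WNT FPKM in the Evx1as+/- mesoderm and 18.6% in the Evx1as-/- mesoderm, measured 1.98, 7.49 and 3.43 FPKM in the first and 0.776, 1.42, 3.20, 3.92 and 6.18 FPKM in the second, with full overlap (log2 change 0.06, 95% interval -0.81 to 0.94). Wnt3 held 7.90% and 42.9% of the same sum. Wnt5b measured 0, 0.893 and 0 FPKM and 0, 0.199, 1.79, 1.27 and 4.27 FPKM (log2 change 1.23, 95% interval 0.10 to 2.36, limma adjusted p = 0.286). Wnt3a and Wnt8a were under 1 FPKM in every mesoderm section of both genotypes. Wnt11 lay between 0 and 0.146 FPKM and between 0 and 1.25 FPKM.

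With streak and mesoderm in 1 fit, Wnt3 changed by 1.33 between the genotypes (SE 0.33, limma adjusted p = 0.0461) and was 1 of 5 tested ligand genes past the threshold, against 1.25% of 9527 genes. The Evx1as-/- section was higher in all 8 pairs of the same region and layer, by 0.61 to 1.29 in the streak and by 2.05 to 2.58 in the mesoderm. After scaling by median ratios the Wnt3 change was 1.12 with an adjusted p of 0.0792, and the all-gene calls went from 108 higher and 11 lower to 94 higher and 68 lower. Of the 19 sections, leaving out any single 1 of 13 ended the Wnt3 call, with adjusted p up to 0.0976; with no filter it was 0.156 and with no layer term 0.0597. Wnt3a was lower in 7 of the 8 pairs, with a log2 change of -0.89 (95% interval -1.58 to -0.20, adjusted p = 0.141). In the 3 mesoderm pairs, of which 2 were lower, Wnt3a was under 1 FPKM in both genotypes.

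Of the target list, T was lower (log2 change -1.22) and Fgf8, a streak growth factor, higher (1.88) in that fit, and 8 of the 10 tested targets did not pass. Markers passed in the same fit. Of 6 streak markers 3 were higher, Mixl1 (2.02), Eomes (1.95) and Fgf8, and T was lower; of 4 tested anterior epiblast markers Utf1 (1.30) and Otx2 (1.75) were higher; and of 6 tested visceral endoderm markers 0 passed, with a median of 1.27. Their part in the Wnt3 call was not tested. Whether the genotype difference itself differed between regions was tested as an interaction. It was 1.54 for Wnt3 (95% interval 0.28 to 2.80) and 1.42 for Wnt3a (95% interval 0.11 to 2.73). By limma 0 of 5 ligand genes and 0% of 9527 genes were called, with 337 genes at an unadjusted p under 0.05. Wnt3a was under 1 FPKM in every mesoderm section, where log2(FPKM + 1) leaves little room for a genotype difference.

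Between the regions, most ligands were lower in the mesoderm than in the streak of the same genotype and layer, over 7 matched pairs. Wnt3a fell by 2.11 (SE 0.28, limma adjusted p = 0.00285), Wnt3 by 2.04 (SE 0.35, adjusted p = 0.0116), Wnt8a by 2.03 (SE 0.36, adjusted p = 0.0120) and Wnt5b by 1.84 (SE 0.37, adjusted p = 0.0175). Wnt3, Wnt3a and Wnt5b were lower in 7 of 7 pairs and Wnt8a in 6 of 7. Wnt5a differed from them: it was higher in the mesoderm in 6 of 7 pairs, with a log2 change of 0.36 (95% interval -0.17 to 0.88, adjusted p = 0.355).

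These 4 of 5 ligand genes stood against 8.62% of the 9146 genes tested, with 53 higher (0.579%) and 735 lower (8.04%), and a median log2 change of -0.34 over all genes. After scaling by median ratios 35 genes were higher and 28 lower, and only Wnt3a of the 5 ligand genes passed, at -1.86 (adjusted p = 0.0152). The unscaled direction of Wnt3, Wnt8a and Wnt5b was kept, at -1.68, -1.71 and -1.62. With no filter their adjusted p was 0.0834, 0.0838 and 0.108, and with sections added by cell-type label 0.0662, 0.0531 and 0.0531. Of the target list, 6 of 10 were lower in the mesoderm, including T (-3.54) and Sp8 (-2.83), and the secreted inhibitors split, with Cer1 (2.85) and Sfrp1 (2.23) higher and Frzb (-1.37) lower. Whether the region difference depended on genotype was tested too, and 0 of 5 ligand genes passed by limma, against 0.0109% of 9146 genes, with 562 genes at an unadjusted p under 0.05.

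**Figure D4:**
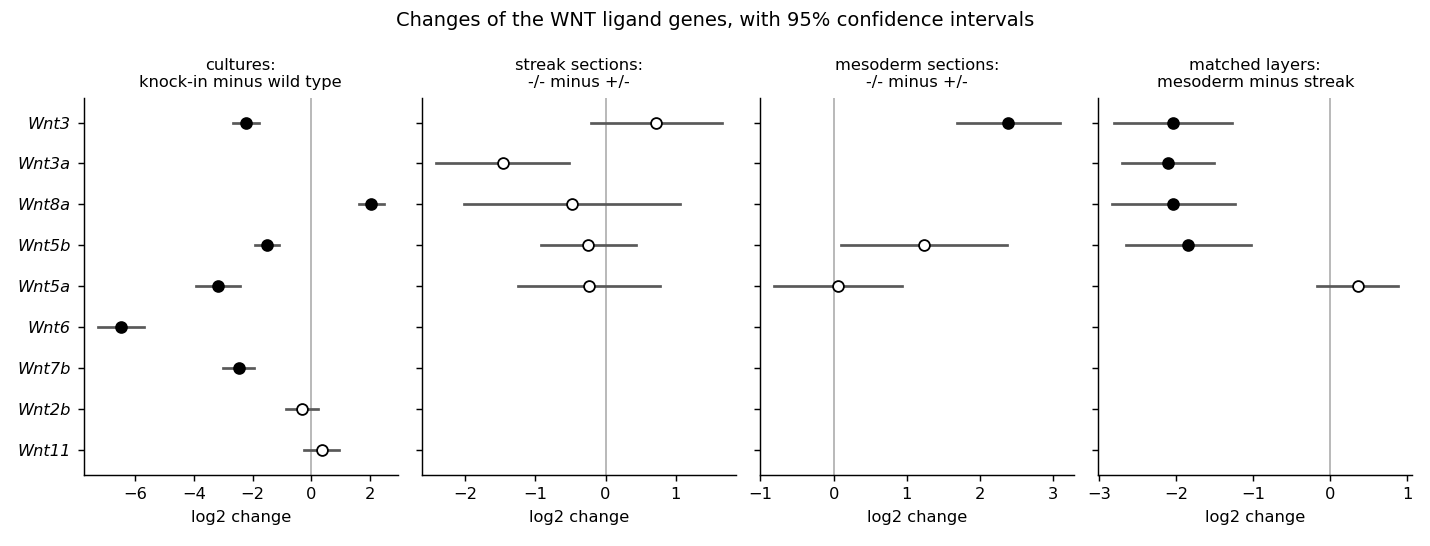
Log2 changes on the log2(FPKM + 1) scale with 95% confidence intervals for each tested ligand gene in 4 comparisons, each with its own horizontal scale; filled points passed the adjusted threshold of 0.05. In the cultures 6 of 8 points are filled, in the streak none of 5, in the mesoderm 1 of 3 and between regions 4 of 5.

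Along the streak, layer 1 held the least Wnt3 and Wnt8a of either genotype. Wnt8a in layer 1 against all other streak layers changed by -2.68 (SE 0.66, limma adjusted p = 0.0457), 1 of 5 ligand genes past the threshold against 2.34% of 9932 genes. The call was lost in 10 of 11 fits that left out 1 section, and only 2 sections were in layer 1; with no filter the adjusted p was 0.103, with a filter of 5 FPKM 0.113 and with sections added by cell-type label 0.264. Wnt3 changed by -1.60 (adjusted p = 0.0689), Wnt5a by -1.91 (0.116) and Wnt3a by -1.32 (0.222). In the same contrast the inhibitors Cer1 and Sfrp1 were higher, by 5.10 and 3.57, and the target Sp8 and the mediator Lef1 were lower, with log2 changes of -3.56 and -2.03. The receptors Lgr5, of R-spondins, and Fzd6 were higher, by 3.05 and 2.45. Of 4 tested epithelial markers 3 were higher there, among them Krt8 (3.45) and Krt18 (3.91). Of 4 tested parietal endoderm markers 2 were higher, Sparc (2.53) and Col4a1 (2.28). Of 6 tested mesoderm markers only Mesp1 passed, and it was lower (-3.90). No tested streak, anterior epiblast, visceral endoderm or trophoblast marker passed. The part of these cell types in the ligand values was not tested. All-gene calls were 218 higher and 14 lower, or 160 and 45 after scaling, when Wnt3 and Wnt3a also passed.

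Over streak layers 3 to 11, none of the 5 ligand genes had a slope past the threshold by limma, against 0.0105% of 9501 genes, with 628 genes at an unadjusted p under 0.05. Wnt8a had the steepest slope, -0.27 per layer number (95% interval -0.46 to -0.07, adjusted p = 0.708). In the mesoderm the slopes of Wnt3, Wnt5a and Wnt5b were 0.17, 0.23 and 0.24 per layer number, with unadjusted limma p of 0.0136, 0.00848 and 0.0283 and adjusted p of 0.904, 0.844 and 0.968. That gave 0 of 3 past the threshold, against 0.0115% of 8695 genes.

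The anterior epiblast held little of any ligand. Wnt3 was at 0 and 0.0404 FPKM in the Evx1as+/- and Evx1as-/- pieces, Wnt3a at 0 and 0.318 FPKM, Wnt5b at 0 in both and Wnt2b at 1.07 and 0.521 FPKM. Against the streak sections Wnt3 changed by -3.63 (SE 0.56, limma adjusted p = 0.00571) and Wnt5b by -2.65 (SE 0.38, adjusted p = 0.00330), 2 of 5 ligand genes against 0.406% of 9854 genes (0.101% called higher and 0.304% called lower). Wnt3a changed by -2.42 (adjusted p = 0.125). With 1 piece per genotype the call leans on each: without the Evx1as+/- piece the adjusted p was 0.156 for Wnt3 and 0.225 for Wnt5b, and without the Evx1as-/- piece 0.108 and 0.0389. With sections added by cell-type label it was 0.181 and 0.0888. Genes called were 10 higher and 30 lower, or 27 and 29 after scaling.

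Only Wnt3 averaged 5 FPKM or more in the 19 sections, the level set for naming genes of like pattern. The 3 genes whose log2(FPKM + 1) values followed Wnt3 most closely were Vrtn, Hk2 and Psme2b. Their Pearson correlations were 0.831, 0.829 and 0.826, across sections that differ in genotype, region and summed FPKM. The part of these differences in the correlations was not tested.

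**Figure D5:**
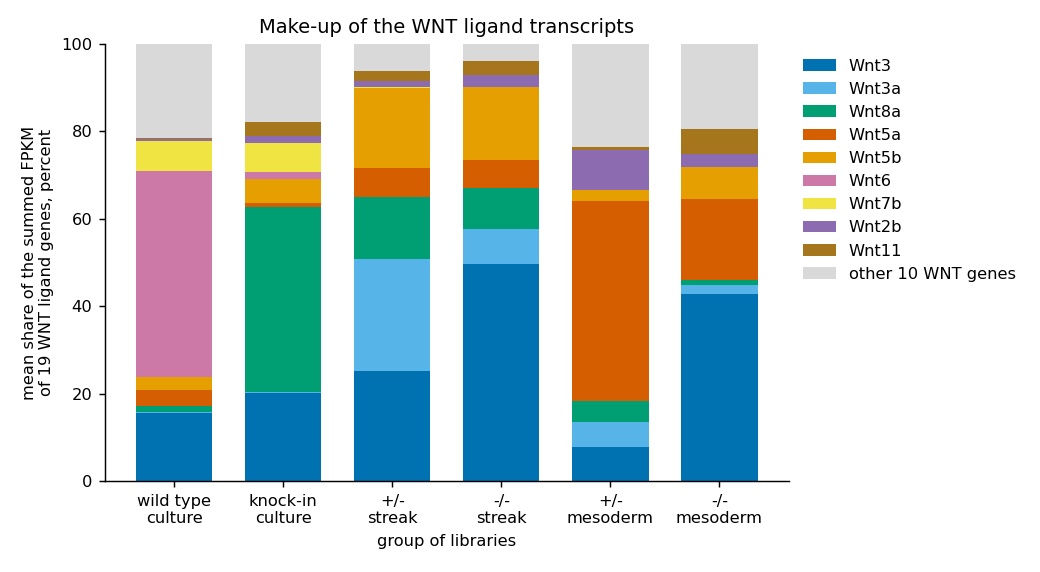
Mean share, in percent, of each ligand gene in the summed FPKM of 19 mouse WNT genes, for 2 culture and 4 section groups of 3 to 6 libraries. Wnt6 takes 47.2% in wild-type cultures, Wnt8a 42.3% in knock-in cultures, and Wnt3 takes 25.1% of the Evx1as+/- and 49.7% of the Evx1as-/- streak.

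The values of the cultures and the sections are set side by side here. Over both regions of the sections Wnt3 was 1.33 higher on the log2 scale in Evx1as-/-, and it was 2.23 lower in knock-in cultures. The section call (limma adjusted p = 0.0461) fell out under 16 alternatives and was kept under 11. It did not pass in the streak alone. The culture call was kept in every alternative fit. Wnt8a rose by 2.04 in the cultures; in the streak its log2 difference of -0.48 did not pass, with an interval that spans 0. T was lower in both, by 3.79 in the cultures and by 1.22 over both regions of the sections. The cultures were compared with wild type and the sections with heterozygotes, and the 2 kinds of table were made separately, so their values were not tested against each other.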

How the data were processed

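RNA sequencing of 6 cultures and 24 laser-captured embryo sections was used. The submitters' processing notes name CASAVA, TopHat2 2.0.11 and mm10; the tool that computed FPKM is not given in the sources used here. The deposited FPKM values are normalised for transcript length and library size by the authors, with an interval per value, per the file headers. Gene positions in the culture tables do not match mm10, those in the section tables do. The 69 repeated rows of each section table were summed, and values under 1e-06 were set to 0. Changes were fitted with limma 3.58.1 (R 4.3.3, trend) on log2(FPKM + 1), two-sided, over genes averaging 1 FPKM or more, with Benjamini-Hochberg adjustment and a threshold of 0.05, and the procedure was tested on simulated data. Section fits between genotypes had layer as a covariate; the region fit paired genotype and layer. The members and gene lists were chosen with earlier results of these data known. Named genes were the 9 ligands, T, Evx1 and Evx1as, and of each pathway list up to 4 genes past the threshold with the largest changes and at least 5 FPKM in the higher group. Cell-type markers, Axin2, Sp5, Msgn1, Rspo3, Rnf43, Dkk1 and Sfrp4 were named outside that rule, after their values were seen. Alternatives were a pseudocount of 0.1, no filter or a mean of 5 FPKM, scaling by median ratios and each library left out. Others were sections with conflicting labels added, other layer terms, the lane number in the file names and chromosome medians. Depth is unknown because no counts were analysed, so no counting intervals are given. The 4 posterior pieces were not analysed here.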

Additional observations from a re-analysis of the deposited data

How the results depend on the processing

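Over 898 alternatives of 54 ligand results, 825 kept direction and, where a fit was run, side of the threshold. Another 50 fell out of it, 7 came into it and 16 changed sign. Culture changes relative to the chromosome median or within the shared lane number were not fits and were judged by direction alone. In the cultures 6 ligand genes passed in every alternative fit but that with no filter (7). With a replicate block 6 passed, and 3166 genes in all. The replicate numbers of the cultures do not pair them (same-number correlations -0.12, -0.05 and -0.05). In the mesoderm the count of 1 became 0 with no filter, sections added by cell-type label or a layer block. It was 0 to 1 with 1 section left out. With a filter of 5 FPKM 0 ligand genes were tested there, so that filter cannot decide the call. Over both regions it became 0 with no filter, scaling or no layer term, and 0 to 1 with 1 section left out. Between regions 4 became 1 with no filter, scaling or cell-type labels. With a filter of 5 FPKM only 1 ligand gene was tested between regions, and it passed. For layer 1 the count of 1 became 2 with a pseudocount of 0.1, 3 with scaling, 0 with no filter, a filter of 5 FPKM or cell-type labels, and 0 to 3 with 1 section left out. For the anterior epiblast 2 became 3 with a pseudocount of 0.1, 1 with a filter of 5 FPKM, 0 with cell-type labels and 0 to 3 with 1 section left out.

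Every change of sign was of a result that did not pass in the main setting, and the cause was not tested. With 1 section left out, Wnt5a ranged from -0.55 to 0.15 in the streak, from -0.19 to 0.47 in the mesoderm, from -0.27 to 0.10 over both regions and from -0.12 to 0.65 in the interaction, and Wnt8a from -1.17 to 0.11 in the streak, from -0.34 to 1.13 in the interaction and from -1.14 to 0.60 in the region-by-genotype term. Wnt5a in the mesoderm was -0.21 with scaling, -0.47 with sections added by title and -0.40 with no layer term, and its interaction -0.14 with sections added by title. With cell-type labels Wnt5b was 0.19 and Wnt8a 0.12 in the streak, and Wnt8a 0.19 over both regions.

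Counts over all genes moved by more than 1.5 times over the alternatives, sections left out included: in the mesoderm 17 became 0 to 227, over both regions 119 became 19 to 835, between regions 788 became 37 to 2214, for layer 1 232 became 26 to 590, for the anterior epiblast 40 became 6 to 183, in the streak 2 became 0 to 9, and in the cultures 4256 became 2693 to 3976 with 1 library left out.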
